A study of Mus musculus with 9 samples.

Results

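Interferon-stimulated genes were followed as a set of 43 genes in mouse splenic monocytes. The set was drawn up by gene symbol as well-known targets of interferon signalling, with earlier results of these data known. All 43 symbols matched 1 row each among the 55487 rows of the deposited gene tables. Each of the 43 had enough counts to be tested, within the 18341 genes tested in all. The study sorted untreated monocytes from spleens of C57BL/6 mice, at 40000 to 50000 cells per library, into 3 groups of 3 libraries. WT Ly6Chi are classical (Ly6C-high) monocytes of wild-type mice, WT Ly6Clo are nonclassical (Ly6C-low) monocytes of wild-type mice, and KO Ly6Clo are nonclassical monocytes of Cebpa +37-/- mice, in which both copies of the Cebpa +37 element are deleted. Classical monocytes of the Cebpa +37-/- genotype were not analysed here. The labels do not say that each replicate came from its own animal. The p-values thus rest on the variation among these libraries alone, and this may be technical.

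Interferons are secreted proteins that alert cells to infection. Type I interferons bind the receptor made of Ifnar1 and Ifnar2, whose kinases Jak1 and Tyk2 activate transcription factors, Stat2 among them. The complex these form with Irf9 binds the interferon-stimulated response element (ISRE) in promoters of antiviral genes. Interferon-gamma uses another receptor and acts through a different element, the gamma-activated site (GAS), common near genes of guanylate-binding proteins and immunity-related GTPases. A low tonic signal keeps many of these genes on in unchallenged myeloid cells.

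The RefSeq promoter table (GRCm38.p6) held a window for 32 of the 43 genes, from 250 bases before to 50 bases after the annotated start. The ISRE core, spelled GAAA, any 2 bases and GAAA again, and searched on both strands, lay in the windows of 20 of these 32 genes (62.5%), against 1079 of all 27025 genes with a window (3.99%). Sites may overlap each other and a GAS. The GAS core, TTCNNNGAA, reads alike on both strands and was in the windows of 6 genes (18.8%), against 9.55% of all genes. The stretches below are shown because they carry the ISRE cores, in capitals, of 5 genes with lower RNA in Ly6Clo monocytes and of Gbp2, the gene with the smallest p between KO and WT Ly6Clo. Each is written 5′ to 3′ on the gene's own strand, and positions count from the annotated start, with -1 the base before it.
Isg15, chr4:156200845-156200926, minus strand, positions -108 to -27: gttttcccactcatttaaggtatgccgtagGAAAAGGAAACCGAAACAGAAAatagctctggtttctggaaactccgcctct
Bst2, chr8:71537557-71537632, minus strand, positions -160 to -85: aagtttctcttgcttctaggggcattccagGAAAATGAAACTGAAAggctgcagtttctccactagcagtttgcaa
Ifi203, chr1:173942493-173942557, minus strand, positions -65 to -1: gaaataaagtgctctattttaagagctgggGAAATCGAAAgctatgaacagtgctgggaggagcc
Trim30a, chr7:104465194-104465259, minus strand, positions -66 to -1: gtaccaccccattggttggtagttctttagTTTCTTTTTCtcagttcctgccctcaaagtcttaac
Slfn5, chr11:82951937-82951966, plus strand, positions -165 to -136: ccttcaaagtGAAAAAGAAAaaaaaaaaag
Gbp2, chr3:142620594-142620623, plus strand, positions -69 to -40: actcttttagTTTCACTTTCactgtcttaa
Isg15 carried 3 overlapping cores in a row and Bst2 carried 2, whereas the other 4 stretches held 1 each. The Slfn5 and Gbp2 stretches lie before the RefSeq start and are printed with shorter flanks. With longer flanks they overlapped an exon of a GENCODE M21 transcript, strand not considered, and the printed bases alone were not checked. The Slfn5 stretch lies within the span of its gene in the deposited tables (82951349 to 82964840). The Gbp2 stretch begins before the span of its gene (142620602 to 142638008) and ends inside it. The Ifi203 stretch overlaps no M21 exon but lies within the span of the gene in the deposited tables (173920407 to 173942672). In Trim30a and Gbp2 the core lay on the opposite strand. Igtp, Oas1a, Eif2ak2 and Bst2 held both motifs. The median log2 fold change of WT Ly6Clo against WT Ly6Chi was -1.30 over the 20 genes with the ISRE core in the window. It was -1.52 over the 12 genes without the core there. The 2 medians were not tested against each other, and sites outside the window were not searched. A match is a run of letters and not a measured binding site.

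Gene totals ran from 48141590 to 173703361 counts per library, so that 3 counts equal 0.0173 to 0.0623 CPM (counts scaled to a common library total). Cebpa was at 31.5, 51.3 and 51.6 CPM in WT Ly6Chi, at 18.2, 17.7 and 19.2 in wild-type Ly6Clo libraries and at 4.04, 2.89 and 2.74 in the KO libraries. The 6 classical markers (among them Ly6c2, Ccr2 and Fn1) summed to 6960 to 7770 CPM in WT Ly6Chi, 141 to 153 in WT Ly6Clo and 124 to 207 in KO Ly6Clo. WT Ly6Chi replicate 3 stood apart by sex-linked genes: Xist was at 30 CPM and Ddx3y at 0, against at most 0.0417 and at least 69.4 CPM in the other libraries. In WT Ly6Chi replicate 1 the 6 nonclassical markers summed to 1230 CPM, against 5420 and 5830 in the other WT Ly6Chi libraries. The libraries also carry numbers that fall in 2 runs, here called run A (WT Ly6Chi 1, WT Ly6Clo 1 and 2, KO 1 and 2) and run B (WT Ly6Chi 2 and 3, WT Ly6Clo 3, KO 3). The labels do not say what the runs stand for. In bulk samples fewer cells of a type and less RNA per cell cannot be told apart.

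Nonclassical monocytes of wild-type mice held less RNA of the interferon-stimulated genes than classical monocytes. All 43 genes had a negative log2 fold change in WT Ly6Clo against WT Ly6Chi, from -0.34 for Zbp1 to -4.71 for Ifi44, with a median of -1.50, beside 50.2% negative values and a median of 0.0 over all tested genes. By the quasi-likelihood test of edgeR, with p-values adjusted over all tested genes, 14 of the 43 were called lower and 0 higher (adjusted p under 0.05), whereas 1.62% of all tested genes were called lower and 1.88% higher. Unadjusted p was under 0.05 for 37, all lower, against 8.84% of all genes. For 38 of the 43 every Ly6Clo library was below every Ly6Chi library, against 14.7% of all genes. The 5 genes with overlap were Zbp1, Oas3, Ifi35, Parp14 and Lgals3bp. Summed over the 43 genes, the level was 5343, 6881 and 6820 CPM in WT Ly6Chi and 2697, 1861 and 2747 CPM in WT Ly6Clo. Every WT Ly6Clo library was thus below every WT Ly6Chi library. Neutrophil marker RNA was also higher in WT Ly6Chi: the 7 markers summed to 151, 661 and 270 CPM there, to 4.57, 2.18 and 4.18 in WT Ly6Clo and to 0.466, 8.18 and 23.9 in the KO libraries. Of the 7, Ngp, Camp, Ltf and S100a9 were called lower in WT Ly6Clo. Cxcr2 went the other way without being called, at 1.06, 0.167 and 0.0408 CPM in WT Ly6Chi and 2.42, 1.49 and 1.37 in WT Ly6Clo. Retnlg and the defining marker Ly6g overlapped between these groups, and Ly6g was at most 0.411 CPM in any library. The part of these markers in the subset difference was not tested. All 43 fold changes stayed negative within run A (median -1.42) and within run B (median -1.28), where a group has 1 or 2 libraries. The number called moved with single libraries: it was 10, 5 and 6 without WT Ly6Chi replicate 1, 2 and 3, and 6, 7 and 6 without WT Ly6Clo replicate 1, 2 and 3.

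**Figure D1:**
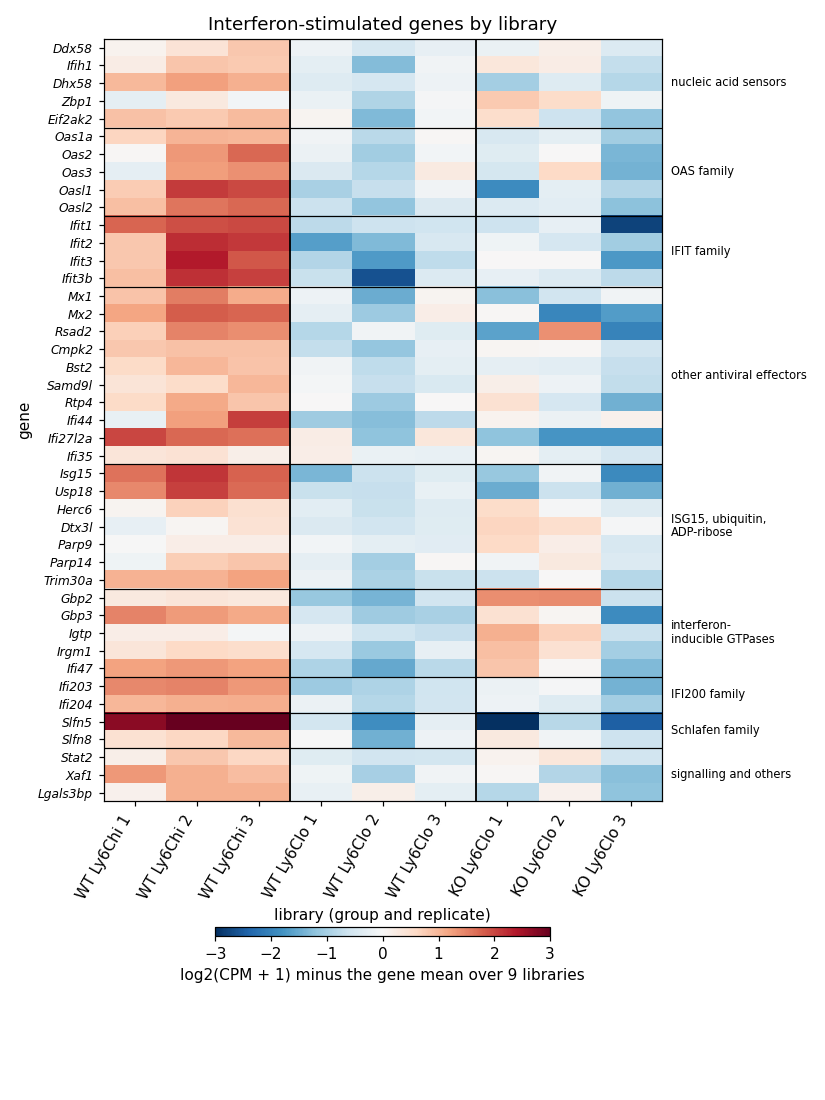
Level of each of the 43 genes (rows, by role) in each of the 9 libraries (columns), as log2(CPM + 1) minus the gene's mean over the libraries, with colours capped at -3 and 3. The WT Ly6Chi columns are red (above the mean) for nearly all rows, and within KO Ly6Clo the GTPase rows are red to near white in replicates 1 and 2 and blue (below the mean) in replicate 3.

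The negative regulator Usp18 and the sensor Dhx58 had the smallest p. Usp18 (chromosome 6, 121245906 to 121270917 in GRCm38) removes ISG15 from proteins and damps the type I receptor. Its level was 94.4, 145 and 113 CPM in WT Ly6Chi, 21.2, 20.7 and 29.2 in WT Ly6Clo, then 11.5, 21.5 and 11.9 in KO Ly6Clo. All 6 Ly6Clo libraries were below the 3 Ly6Chi libraries (WT Ly6Clo against WT Ly6Chi log2 fold change -2.31 with an SE of 0.30, edgeR adjusted p = 0.0054). Isg15 (chromosome 4, 156199455 to 156200796), the ubiquitin-like modifier that Usp18 removes, was at 55.9, 79.8 and 61.4 CPM in WT Ly6Chi and at 6.12, 10.7 and 13.2 in WT Ly6Clo. It fell by 2.71 on the log2 scale (SE 0.51, edgeR adjusted p = 0.024), and in KO Ly6Clo it was at 7.34, 16 and 3.90 CPM. Trim30a, a tripartite-motif protein that limits inflammatory signalling, stood at 183, 183 and 206 CPM in WT Ly6Chi, 78.6, 45.2 and 55.9 in WT Ly6Clo, then 56.0, 89.8 and 49.0 in KO. It fell too (log2 fold change -1.67 with an SE of 0.28, edgeR adjusted p = 0.015). The other 4 genes of this group, which act in ubiquitin or ADP-ribose transfer, were not called. Dtx3l, Parp9 and Parp14 differed by -0.57, -0.36 and -0.90 on the log2 scale and the ligase Herc6 by -0.96. Dtx3l and Parp9 lie over each other on opposite strands, and the sources used here do not give the strand setting of the counting, so their reads cannot be told apart with certainty.

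Among the 5 nucleic acid sensors, 1 was called. Dhx58 (chromosome 11, 100694884 to 100704271) encodes LGP2, a regulator of the RNA sensors RIG-I and MDA5. Its level was 134, 161 and 143 CPM in WT Ly6Chi, 51.8, 47.1 and 60.5 in WT Ly6Clo, then 33.0, 51.6 and 36.9 in KO Ly6Clo, and the Ly6Chi libraries were apart from all others (log2 fold change -1.46 with an SE of 0.20, edgeR adjusted p = 0.0073). The sensors it acts on had smaller log2 fold changes: Ddx58, which encodes RIG-I, was at 120 ± 29.5 CPM (mean ± SD, n = 3 libraries here and below) in WT Ly6Chi and 70.3 ± 8.70 in WT Ly6Clo. Ifih1, which encodes MDA5, was at 57.0 ± 12.7 and 25.8 ± 10.2 CPM, and the double-stranded RNA kinase Eif2ak2 at 49.7 ± 2.92 and 21.2 ± 9.69 CPM. These 3 had groups that did not overlap and adjusted p of 0.12, 0.16 and 0.23 (edgeR). Zbp1, a sensor of Z-form nucleic acids that triggers cell death, was the gene of the 43 that differed least, at 224, 327 and 254 CPM in WT Ly6Chi and 233, 142 and 263 in WT Ly6Clo, and these groups overlapped.

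The OAS family makes or resembles the enzymes that activate RNase L on viral RNA, and 1 of its 5 genes was called. Oasl2 (chromosome 5, 114896936 to 114912234) was at 200, 328 and 355 CPM in WT Ly6Chi, 67.6, 46.4 and 79.5 in WT Ly6Clo, then 79.6, 85.6 and 45.1 in KO Ly6Clo. The WT groups were apart (log2 fold change -2.19 with an SE of 0.33, edgeR adjusted p = 0.01). Oas1a and Oasl1 came just short of the threshold (log2 fold changes -1.16 and -2.40, edgeR adjusted p = 0.053 and 0.052). Oas1a was at 230 ± 32.2 CPM in WT Ly6Chi and 103 ± 29.3 in WT Ly6Clo, and Oasl1 at 40.8 ± 17.8 and 7.74 ± 2.84. Oas2 was at 163 ± 83.1 and 54.8 ± 18.1 CPM and Oas3 at 153 ± 76.6 and 65.5 ± 26.7. Their wide spread in WT Ly6Chi came with replicate 1, where Oas2 was at 73.1 CPM against 177 and 237, and Oas3 at 64.8 against 189 and 204. Of the 100-base windows of Oas1a transcripts, 40.9% also occur in Oas1g, so the count of Oas1a is less certain.

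The IFIT family, which binds viral RNA at its 5′ end, showed the lowest median of the groups with more than 2 genes, at -2.99 (range -3.07 to -2.73). Its 4 genes lie together on chromosome 19, between 34550694 and 34650009. Ifit2 was at 41.0, 109 and 102 CPM in WT Ly6Chi, 6.58, 8.53 and 16.1 in WT Ly6Clo, then 20.7, 15.7 and 10.6 in KO Ly6Clo. The lowest Ly6Chi library was above the highest Ly6Clo library of either genotype, and Ifit2 fell by 3.01 in the wild type (SE 0.48, edgeR adjusted p = 0.013). Ifit3 fell as well, from 116 ± 56.8 to 14.8 ± 4.93 CPM (log2 fold change -2.97, edgeR adjusted p = 0.026). Ifit1 went from 43.8 ± 3.86 to 6.62 ± 0.531 CPM and Ifit3b from 32.3 ± 13.7 to 3.87 ± 2.93 CPM, with edgeR adjusted p of 0.069 and 0.065. Ifit3 and Ifit3b share 31.7% and 27.4% of their 100-base windows with each other.

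Of the 10 other antiviral effectors 3 were called. Cmpk2, a mitochondrial nucleotide kinase, was at 142, 151 and 151 CPM in WT Ly6Chi, 49.2, 35.7 and 68.7 in WT Ly6Clo, then 84.4, 83.6 and 54.0 in KO Ly6Clo (WT Ly6Clo against WT Ly6Chi log2 fold change -1.53 with an SE of 0.26, edgeR adjusted p = 0.017). Bst2, the tetherin that holds budding virions at the membrane, was at 117, 156 and 141 CPM in WT Ly6Chi, 72.6, 45.5 and 63.6 in WT Ly6Clo, then 64.6, 61.9 and 47.9 in KO Ly6Clo (log2 fold change -1.19 with an SE of 0.22, edgeR adjusted p = 0.022). Both had their WT groups apart, and the KO libraries lay below WT Ly6Chi as well. Ifi27l2a (chromosome 12, 103442167 to 103443680), a small mitochondrial membrane protein gene, was the most abundant of the 43 by length-scaled level, at a mean of 1890 TPM (the length-scaled unit of the deposited tables) over the 9 libraries. It was at 713, 593 and 559 CPM in WT Ly6Chi, 209, 76.2 and 226 in WT Ly6Clo, then 76.5, 51.5 and 51.0 in KO Ly6Clo. It fell between the wild-type subsets (log2 fold change -1.87 with an SE of 0.38, edgeR adjusted p = 0.032). Bst2 and Zbp1 followed it at 295 and 254 TPM, so that these 3 headed the set by level.

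The remaining effectors were lower in WT Ly6Clo without passing the test. The GTPases Mx1 and Mx2, which block viral nucleocapsids, were at 91.6 ± 22.5 and 24.8 ± 5.65 CPM in WT Ly6Chi and at 30.2 ± 14.9 and 5.89 ± 2.83 in WT Ly6Clo. Samd9l was at 229 ± 51.8 and 111 ± 25.4 CPM, the chaperone Rtp4 at 133 ± 25.7 and 59.6 ± 22.6, and Ifi35 at 127 ± 10.6 and 96.7 ± 16.5. Rsad2, which encodes viperin, was at 48.2, 83.5 and 77.8 CPM in WT Ly6Chi and at 15.7, 27.1 and 22.3 in WT Ly6Clo. The WT groups of Rsad2 were apart (edgeR adjusted p = 0.32), and its KO libraries, at 8.95, 76.7 and 6.49 CPM, had the widest spread of the 43 genes in any group (SD of log2(CPM + 1) 1.84). Ifi44 was the lowest of the set by length-scaled level, at 1.12 TPM, with 60, 224 and 450 counts in WT Ly6Chi, 9, 0 and 22 in WT Ly6Clo, then 104, 164 and 94 in KO Ly6Clo. Its fitted log2 fold change of -4.71 (SE 1.43, edgeR adjusted p = 0.12) therefore rests on few counts. Herc6, at 5.09 TPM, was next lowest, at 15.3, 23.7 and 20.4 CPM in WT Ly6Chi, 11.2, 8.56 and 10.7 in WT Ly6Clo, then 21.4, 13.9 and 10.7 in KO Ly6Clo. Mx2, at 9.72 TPM, came after it, at 18.3, 28.8 and 27.2, 6.0, 3.0 and 8.67, and 7.67, 1.19 and 1.63 CPM in the same order of groups.

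Both IFI200 genes, which belong to a family of DNA-binding and inflammasome proteins, fell. Ifi203 (chromosome 1, 173920407 to 173942672) was at 124, 127 and 112 CPM in WT Ly6Chi, 20.6, 23.2 and 29.4 in WT Ly6Clo, then 39.4, 43.7 and 16 in KO Ly6Clo (WT Ly6Clo against WT Ly6Chi log2 fold change -2.31 with an SE of 0.35, edgeR adjusted p = 0.01). Ifi204 was at 359, 374 and 381 CPM, 157, 98.7 and 120 CPM and 159, 135 and 87.9 CPM in the same order (log2 fold change -1.57 with an SE of 0.25, edgeR adjusted p = 0.012). The WT Ly6Chi libraries were close to each other for both and apart from every Ly6Clo library. Of the Ifi204 windows 10.7% recur in Ifi211 or Mndal.

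Slfn5 (chromosome 11, 82951349 to 82964840), a Schlafen gene that restrains viral transcription, had the largest log2 difference of the called genes. It was at 275, 378 and 420 CPM in WT Ly6Chi, 27.8, 10.5 and 33.9 in WT Ly6Clo, then 3.41, 22.6 and 6.67 in KO Ly6Clo. It fell by 3.89 on the log2 scale between the wild-type subsets (SE 0.72, edgeR adjusted p = 0.022), and its relative Slfn8 was at 114 ± 21.9 and 52.1 ± 23.8 CPM without passing. Of the 3 remaining genes, Stat2 was at 227 ± 49.5 and 108 ± 9.27 CPM, the apoptosis gene Xaf1 at 86.9 ± 11.9 and 30.7 ± 9.74, and the secreted glycoprotein gene Lgals3bp at 282 ± 91.9 and 149 ± 27.4. None of these 3 passed in the wild type (edgeR adjusted p = 0.058, 0.064 and 0.24).

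The 5 interferon-inducible GTPases coat or disrupt the vacuoles of intracellular pathogens. Ifi47, called lower in WT Ly6Clo, was at 149, 159 and 150 CPM in WT Ly6Chi and at 33.6, 21.4 and 36.5 in WT Ly6Clo (log2 fold change -2.32 with an SE of 0.47, edgeR adjusted p = 0.032). Gbp3 was at 137, 117 and 106 CPM and 33.4, 22.4 and 24.1 CPM, Gbp2 at 61.2, 63.8 and 61.9 and 21.9, 18.4 and 32.8, Irgm1 at 154 ± 12.8 and 72.5 ± 21.3, and Igtp at 77.4 ± 7.72 and 51.5 ± 10.6. All 5 had WT groups that did not overlap. The summed level of the 5 was 569, 586 and 544 CPM in WT Ly6Chi and 229, 158 and 229 in WT Ly6Clo.

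Usp18, Dhx58 and Oasl2 were called in each of 17 alternative analyses. A fit of run A alone, which called none of all genes tested, is not counted among these. Ifi203 lost the call without WT Ly6Clo replicate 1 (edgeR adjusted p = 0.055), Ifi204 without WT Ly6Clo replicate 3 (0.06), and Ifit2 without WT Ly6Chi replicate 2 or WT Ly6Clo replicate 1 or 2. Cmpk2, Bst2 and Trim30a lost it without 4 of the 9 libraries, in each case WT Ly6Chi 2 and 3 with 2 WT Ly6Clo libraries. Ifit3 and Ifi27l2a lost it without 5 of them, Isg15 and Slfn5 without each of the 6 WT libraries and Ifi47 without 7. With the run of library numbers as a term Ifit3 and Ifi27l2a were not called either (edgeR adjusted p = 0.059 and 0.054), and Ifit3 was not called with the replicate block (0.051).

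**Figure D2:**
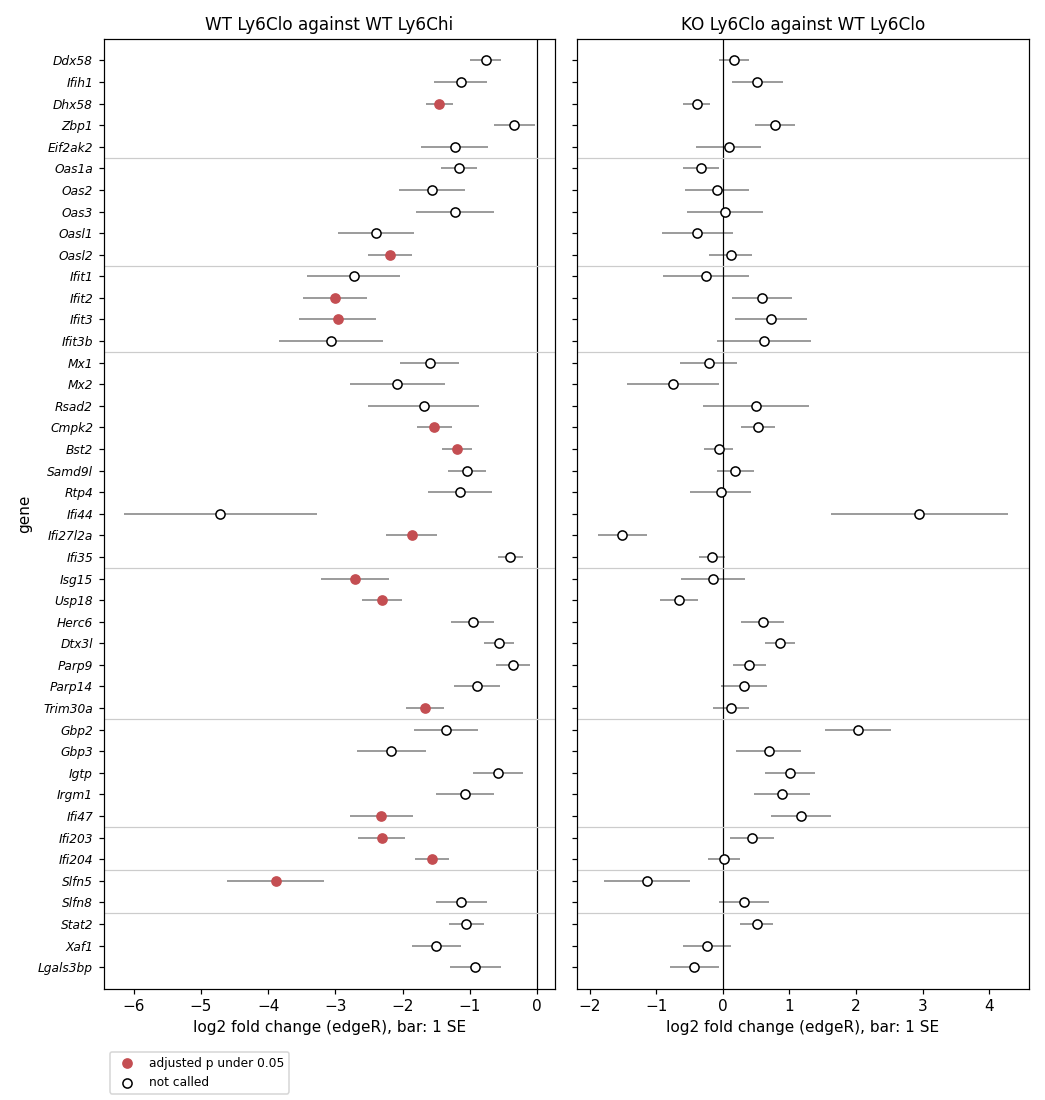
Log2 fold change of each gene with its SE, for WT Ly6Clo against WT Ly6Chi (left) and KO Ly6Clo against WT Ly6Clo (right). Filled red points passed the edgeR test. All points on the left lie below 0, and 14 are filled, while on the right they lie between -1.51 and 2.95 and 0 are filled.

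Within Ly6Clo monocytes the deletion was not followed by a change that passed the test in any of the 43 genes. By edgeR 0 were called, where 0.0109% of all tested genes were called higher and 0.06% lower in KO. Unadjusted p was under 0.05 for 5 genes with higher levels (Gbp2, Dtx3l, Igtp, Zbp1 and Ifi47), against 3.27% of all genes, and for 2 with lower levels (Ifi27l2a and Usp18), against 2.9%. The median log2 fold change was 0.17, with 16 negative values, beside 0.03 and 47.3% negative values over all genes. DESeq2 called 2 of the 43 (Gbp2 higher and Ifi27l2a lower) and limma-voom 0. Groups were apart for 2 genes, Ifi44 and Dtx3l, both higher in KO, against 5.22% of all genes, and for 0 genes lower in KO, against 5.7%.

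Gbp2 (chromosome 3, 142620602 to 142638008) had the smallest p. It was at 133, 134 and 31.2 CPM in KO replicates 1 to 3 and at 21.9, 18.4 and 32.8 CPM in WT Ly6Clo. KO replicates 1 and 2 were above every wild-type library of either subset, and KO replicate 3 was within the WT Ly6Clo range (log2 fold change 2.03 with an SE of 0.49, edgeR unadjusted p = 0.0024 and adjusted p = 0.36). Gbp2 was called without KO replicate 3 (log2 fold change 2.46, edgeR adjusted p = 0.035) and by DESeq2 (adjusted p = 0.0033). Ifi27l2a was at 76.5, 51.5 and 51.0 CPM in KO against 209, 76.2 and 226 in WT Ly6Clo. Only WT Ly6Clo replicate 2 reached the KO range (log2 fold change -1.51 with an SE of 0.37, edgeR adjusted p = 0.39, DESeq2 adjusted p = 0.0095). Dtx3l (chromosome 16, 35926511 to 35939151), a ubiquitin ligase that acts with Parp9, was at 244, 219 and 152 CPM in KO and 114, 104 and 121 in WT Ly6Clo (log2 fold change 0.86 with an SE of 0.23, edgeR adjusted p = 0.46). All 3 KO libraries were above the WT Ly6Clo libraries. Igtp (chromosome 11, 58199556 to 58207591) was at 151, 115 and 45.3 CPM in KO and 63.6, 46.7 and 44.0 in WT Ly6Clo (log2 fold change 1.01 with an SE of 0.38, edgeR adjusted p = 0.71), and it overlaps Irgm2 on the same strand.

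The other genes overlapped between KO and WT Ly6Clo, and their KO levels are given here as mean ± SD (n = 3 libraries). Of the sensors, Ddx58 was at 79.1 ± 17.3 CPM, Ifih1 at 37.0 ± 13.4, Eif2ak2 at 22.5 ± 14.9 and Zbp1 at 367 ± 112. Of the OAS family, Oas1a was at 82.3 ± 20.9 CPM, Oas2 at 51.4 ± 22.6, Oas3 at 67.5 ± 46.5 and Oasl1 at 5.93 ± 3.5. All 8 sensors and OAS genes had an adjusted p of at least 0.72 by edgeR. In the IFIT family Ifit3 was at 24.5 ± 13.4 CPM and Ifit3b at 5.91 ± 1.27. Of the other effectors, Mx1 was at 26.0 ± 10.2 CPM, Samd9l at 127 ± 39.0, Rtp4 at 58.5 ± 37.2 and Ifi35 at 86.6 ± 17.4. These 6 antiviral genes lay on both sides of their WT Ly6Clo means. Parp9 and Parp14, for which WT Ly6Clo held 95.2 ± 9.39 and 82.3 ± 28.2 CPM and WT Ly6Chi 122 ± 11 and 154 ± 50.0, were at 126 ± 44.7 and 103 ± 25.5 CPM. Of the last genes, Slfn8 was at 64.8 ± 20.3 CPM, Stat2 at 154 ± 46.7, Xaf1 at 26.0 ± 12.9 and Lgals3bp at 111 ± 57.3.

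The KO libraries differed from each other more than the WT Ly6Clo libraries did. Summed over the 43 genes they held 3484, 3409 and 1849 CPM, so that replicates 1 and 2 were above the WT Ly6Clo range of 1861 to 2747 CPM and replicate 3 was below it. The 5 GTPases made the clearest case, at 666, 514 and 167 CPM in KO. Replicates 1 and 2 were near the 544 to 586 CPM of WT Ly6Chi, and replicate 3 was near the 158 to 229 CPM of WT Ly6Clo. Irgm1 was at 202, 149 and 52.7 CPM in KO and 76.4, 49.5 and 91.4 in WT Ly6Clo, and Ifi47 at 115, 65.8 and 25.2 against 33.6, 21.4 and 36.5. Gbp3, at 66.4, 50.3 and 12.2 CPM, had 1 of the 3 widest spreads of the set (SD of log2(CPM + 1) 1.26), after Rsad2 and after Ifit1, which was at 6.80, 9.15 and 0.755 CPM in KO (1.37) and at 6.01, 6.83 and 7.01 in WT Ly6Clo. Without KO replicate 3 the median log2 fold change of the 43 genes was 0.41, with 10 negative values. Without WT Ly6Clo replicate 2 it was -0.01, with 22 negative values.

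**Figure D3:**
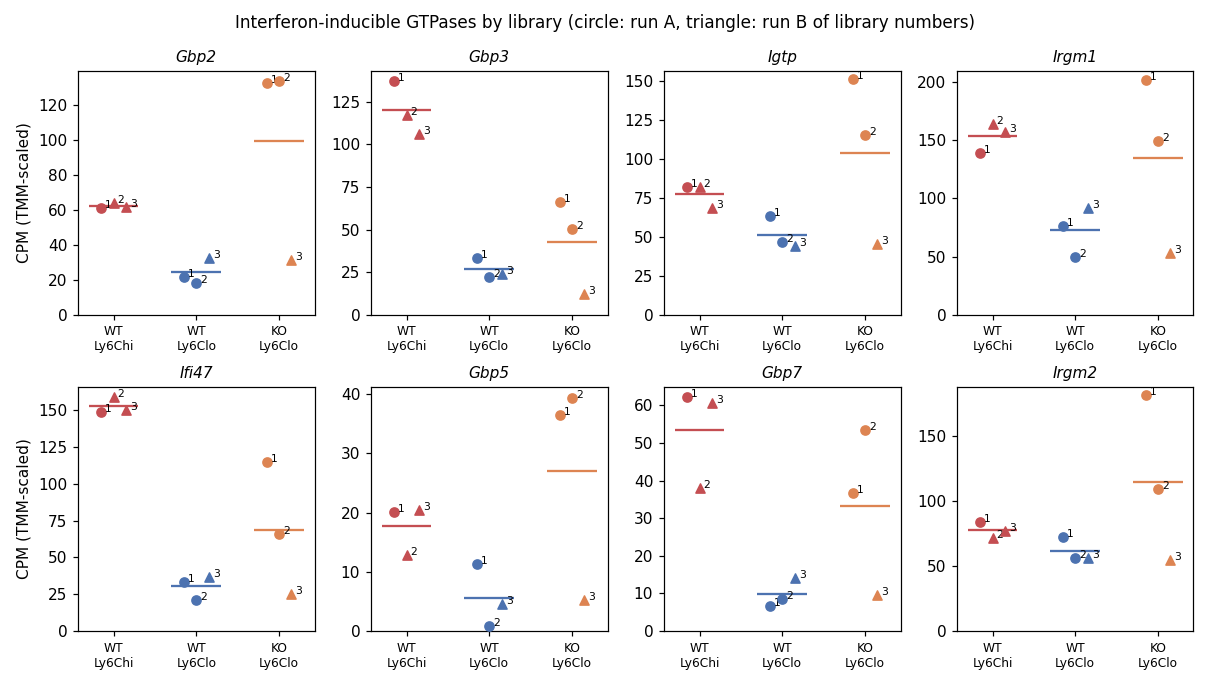
CPM in each library (points, numbered by replicate) and group mean (lines) for 5 GTPase genes of the set (Gbp2, Gbp3, Igtp, Irgm1, Ifi47) and 3 related genes outside it (Gbp5, Gbp7, Irgm2). Circles are run A and triangles run B of library numbers. In all 8 panels KO replicate 3 lies far below KO replicates 1 and 2.

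The runs of library numbers divide the KO libraries in the same way. Within run A, with 2 libraries a group, both KO libraries were above both WT Ly6Clo libraries for 19 of the 43 genes, among them all 5 GTPases, against 15.2% of all genes, and both were below for 0, against 13.6%. The median log2 difference in run A was 0.55, with 34 positive values, beside 0.01 over all genes. Within run B, with 1 library a group, KO replicate 3 was below WT Ly6Clo replicate 3 for 39 of the 43, against 51.3% of all genes, and the median was -0.61. The direction between genotypes was therefore opposite in the runs for most of the 43 genes. How many of all tested genes had opposite directions was not computed. For 15 genes KO was above in run A in this sense and below in run B, against 6.58% of all genes. These were Ifih1, Zbp1, Oasl2, Ifit2, Ifit3, Ifit3b, Cmpk2, Parp9, Parp14, Gbp2, Gbp3, Irgm1, Ifi47, Ifi203 and Stat2. For 9 genes KO was lower in both runs by this difference, which is that of mean log2(CPM + 1). The share of all genes lower in both runs was not computed, so this count does not set the 9 genes apart. Usp18, Ifi27l2a, Dhx58, Slfn5 and Oasl1 differed by -0.38, -1.0, -0.25, -0.84 and -0.24 in run A and by -1.23, -2.13, -0.70, -2.19 and -0.79 in run B. Lgals3bp, Mx2, Mx1 and Ifi35 differed by -0.33, -0.28, -0.11 and -0.10 in run A and by -0.91, -1.88, -0.19 and -0.28 in run B. Run B has 1 KO library, so the run and that library cannot be told apart. With the run as a term in the fit 0 of the 43 were called. Markers of other cells moved between the KO libraries too: the 6 erythroid markers summed to 1.23, 7550 and 1420 CPM, the 5 NK cell markers to 8.61, 246 and 56.3, and the 6 classical monocyte markers to 207, 207 and 124. WT Ly6Clo held 404, 3340 and 498 CPM of the erythroid, 43.8, 186 and 119 of the NK and 141, 151 and 153 of the classical markers. The part of these markers in the result was not tested.

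Against WT Ly6Chi, KO Ly6Clo monocytes gave 15 genes called lower and 0 higher, where 2.46% of all genes were called lower and 2.06% higher. The comparison shares its reference libraries with that of the wild-type subsets, so its values are set beside those and count as no separate support. The median log2 fold change was -1.35, and 38 of 43 were negative, against 47.4% of all genes. Groups were apart and lower for 28 genes, against 11.7% of all genes. Usp18 fell by 2.97 (SE 0.31, edgeR adjusted p = 0.0012), Dhx58 by 1.85 (SE 0.21, 0.0017), Ifi27l2a by 3.38 (SE 0.40, 0.0024) and Slfn5 by 5.03 (SE 0.76, 0.0079) on the log2 scale, each beyond its value in WT Ly6Clo. Oasl2, Ifi204, Bst2 and Trim30a followed at -2.07, -1.55, -1.25 and -1.55 (SE 0.33, 0.25, 0.22 and 0.28, edgeR adjusted p = 0.0097, 0.0098, 0.015 and 0.015). Isg15, Oas1a, Ifi203, Ifit2, Oasl1, Xaf1 and Ifit1 were the other genes called lower, at -2.85, -1.48, -1.87, -2.42, -2.78, -1.74 and -2.97 (edgeR adjusted p = 0.016 to 0.048). Several of these calls did not hold in the alternatives: Ifit1 was called in 6 of 17 and Xaf1 in 9, Oasl1 and Ifit2 in 12, Oas1a and Ifi203 in 14 and Isg15 in 15. With the run as a term Oasl1, Ifit2 and Ifit1 were not called (edgeR adjusted p = 0.058, 0.065 and 0.062), and with the replicate block Ifit1 was not (0.063).

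Of the 5 GTPases 0 were called, and their median was -0.19. It was 0.31 within run A, with 2 negative values, and -1.59 within run B, with 5. Whether they differ from the other genes was not tested. Gbp2 and Igtp had positive values of 0.67 and 0.42, and Irgm1 was at -0.19, Ifi47 at -1.16 and Gbp3 at -1.48. Zbp1 (0.45), Dtx3l (0.29) and Parp9 (0.04) were the other genes with a positive value, and none of the 5 was called. Usp18, Dhx58, Ifi27l2a, Slfn5, Oasl2 and Ifi204 kept the call in those 17 alternatives. Bst2 and Trim30a lost it without WT Ly6Chi replicate 2 or 3 or KO replicate 3 (edgeR adjusted p from 0.052 to 0.065). The number called was 6 without WT Ly6Chi replicate 2 and 6 without replicate 3, and it was 9 without KO replicate 3.

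**Figure D4:**
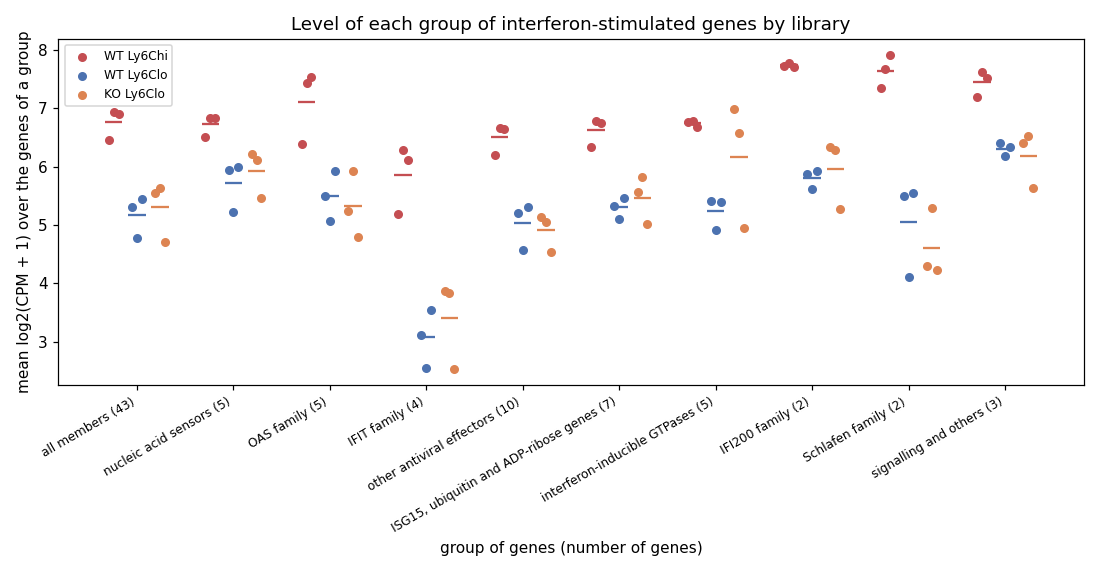
Mean of log2(CPM + 1) over the genes of each role group, for each library (points, replicates 1 to 3 from left to right) and group of libraries (lines show the mean of 3). In each role group but the GTPases all 3 WT Ly6Chi libraries lie above all Ly6Clo libraries, and for the GTPases KO replicate 1 is highest.

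Outside the 43, few of the genes that make, sense and relay interferon were called, as was the case for all tested genes. Of all tested genes 1.62% were called lower and 1.88% higher between the wild-type subsets. In KO Ly6Clo against WT Ly6Chi the shares were 2.46% and 2.06%. In lists this short, few calls do not set the genes apart from all others. Of 20 interferon genes 8 had 0 counts in every library, and of the others only Ifng reached more than 17 counts in 1 library and could be tested. Ifnb1 had 29 counts in all. Ifng, which NK and T cells make, was at 0, 0.104 and 0.306 CPM in WT Ly6Chi, 0.202, 4.15 and 1.81 in WT Ly6Clo, then 0, 4.21 and 0.649 in KO Ly6Clo, and was not called. Its highest libraries were those with the most NK marker RNA. A count of 0 allows up to 0.0605 CPM in WT Ly6Chi replicate 1 and 0.0496 CPM in KO replicate 1 (3 counts, counting error only).

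Of the 6 receptor genes 0 were called in any comparison. Ifngr1, the ligand-binding chain for interferon-gamma, was at 1070, 1300 and 1460 CPM in WT Ly6Chi, 2220, 2380 and 1790 in WT Ly6Clo, then 2410, 1830 and 1740 in KO. Ifnar1, a chain of the type I receptor, was at 182, 189 and 200 CPM, 161, 192 and 179 CPM and 146, 138 and 136 CPM in the same order. Ifnar2, its other chain, was at 144, 146 and 143, at 194, 190 and 183, and at 126, 130 and 137 CPM. Ifngr2, which follows Ifngr1 by length-scaled level, was at 283, 310 and 350, at 300, 224 and 256, and at 318, 195 and 235 CPM. For Ifnar1, Ifnar2 and Il10rb every KO library was below every WT Ly6Clo library, against 5.7% of all genes. Their edgeR adjusted p was 0.74, 0.35 and 0.62. These genes are neighbours on chromosome 16, between 91372783 and 91507441, so they need not be separate results. The other receptor genes overlapped between KO and WT Ly6Clo. Among 11 genes of JAK kinases and transcription factors of the pathway 0 were called between the wild-type subsets. Irf7, the factor that amplifies type I responses, was at 591, 1030 and 874 CPM in WT Ly6Chi, 399, 523 and 429 in WT Ly6Clo, then 393, 498 and 301 in KO. It was called lower in KO Ly6Clo against WT Ly6Chi only narrowly (log2 fold change -1.06, edgeR adjusted p = 0.05, under the threshold before rounding). Between the wild-type subsets its edgeR adjusted p was 0.1, and the difference between these contrasts was not tested.

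Of 11 sensors and adaptors that induce interferon, Ikbke, a kinase that activates Irf3 and Irf7, was the 1 called. It stood at 93.0, 86.2 and 91.9 CPM in WT Ly6Chi, 18.4, 14.8 and 20.9 in WT Ly6Clo, then 41.3, 34.7 and 23.2 in KO. It fell by 2.33 in WT Ly6Clo and by 1.45 in KO Ly6Clo against WT Ly6Chi (edgeR adjusted p = 0.0022 and 0.011). Between KO and WT Ly6Clo the Ikbke libraries did not overlap (log2 fold change 0.88, edgeR adjusted p = 0.46). Of 6 tested negative regulators, Ptpn6, which encodes the phosphatase SHP-1, rose from 1160, 1360 and 1310 CPM to 2090, 2100 and 1980 CPM in WT Ly6Clo (log2 fold change 0.69, edgeR adjusted p = 0.042).

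Among 48 tested further interferon-inducible genes, 12 were called lower and 1 higher in WT Ly6Clo against WT Ly6Chi, beside 1.62% and 1.88% of all tested genes. In KO Ly6Clo against WT Ly6Chi 15 were called lower and 1 higher, beside 2.46% and 2.06%. Slfn4, Ifi211 and Ifi209 had the smallest p, with log2 fold changes of -3.03, -3.18 and -1.96 between the wild-type subsets (edgeR adjusted p = 0.0012, 0.0026 and 0.0033). Gbp8 went the other way: it was at 2.84, 4.86 and 4.08 CPM in WT Ly6Chi, 11.2, 11.5 and 11.5 in WT Ly6Clo, then 30.5, 29.5 and 23.9 in KO. It was called higher in both Ly6Clo groups (log2 fold changes 1.54 and 2.83, edgeR adjusted p = 0.018 and 0.00099). Between KO and WT Ly6Clo 0 of the 48 were called. Gbp5 was at 36.5, 39.3 and 5.21 CPM in KO against 11.4, 0.862 and 4.53 in WT Ly6Clo, Gbp7 at 36.7, 53.5 and 9.67 against 6.60, 8.62 and 14.1, and Irgm2 at 181, 109 and 54.3 against 72.1, 55.7 and 56.4. These 3, chosen for display after their values were seen, had KO replicates 1 and 2 above and replicate 3 within the WT Ly6Clo range or just below it.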

How the data were processed

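RNA was made into libraries with the SMARTer Ultra Low kit from 10 ng of total RNA and read as 150-base pairs, per the labels' protocols. The deposited tables give, per gene ID, whole-number counts that are not normalized, with a length, CPM, FPKM and TPM computed by the authors, per the file headers. The submitters' processing notes name STAR 2.5.1a, featureCounts 1.4.6-p5, Salmon 0.8.2 and the build GRCm38, without roles. The strand setting and the handling of reads shared by genes are not given in these sources. Symbols came from GENCODE M21, which held 55227 of 55487 IDs (99.53%).

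Tests used edgeR 4.0.16 under R 4.3.3 on the counts (filterByExpr, minimum count 10, by group; TMM scaling, 1 term per group over all 9 libraries, glmQLFit and glmQLFTest, Benjamini-Hochberg over 18341 genes, threshold 0.05). A check on simulated counts used a smaller spread than these data have (common dispersion 0.448), so it does not cover their spread. SE is the log2 fold change over the root of F. Levels are CPM recomputed with TMM-scaled totals. Levels compared between genes are the deposited TPM. The deposited FPKM was not used in a test. No replicates looked like 1 library deposited again (chi-square per gene at least 51.4). PCR copies cannot be told from molecules, so limits from counts cover counting error only.

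The 43 genes, the lists and the tests were chosen with earlier results of these data known. Named were, per comparison, up to 8 called genes by smallest adjusted p, filled up to 4 by p, then the 3 highest, 3 lowest and 3 most variable genes. Of the other interferon genes up to 3 called, or the 2 of highest level, were named per list. Genes named beyond that rule, among them Gbp5, Gbp7 and Irgm2 (outside the 43), were chosen after their values were seen. 1 gene of the pathway is not reported here. Alternatives were RLE scaling, no filter, limma-voom (limma 3.58.1), DESeq2 1.42.0, a minimum of 1 CPM in 3 libraries, the 2 groups alone, the replicate number as a block, the run of library numbers as a term, and each library left out. Deviations from the group means correlated at 0.46, 0.35 and 0.12 between same-numbered KO and WT Ly6Clo libraries. Libraries of different numbers were not compared, so these values do not show pairing. The replicate block changed no call of the 43 there.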

Additional observations from a re-analysis of the deposited data

How the results depend on the processing

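The number of the 43 genes called kept within 1.5 times its value under RLE scaling, no filter (21 in WT Ly6Clo against WT Ly6Chi), a filter of 1 CPM in 3 libraries, the run of library numbers as a term and the replicate block. In the order KO with WT Ly6Clo, the wild-type subsets, and KO with WT Ly6Chi, the block gave 0, 16 and 15 calls, where 0, 14 and 15 were called without it. Pairing by number was not shown for any comparison. Same-numbered libraries correlated at 0.35, 0.14 and 0.07 for the wild-type subsets and at 0.33, 0.24 and -0.01 for KO with WT Ly6Chi. DESeq2 called 2, 31 and 24. In WT Ly6Clo against WT Ly6Chi limma-voom called 22 and a fit of the 2 groups alone 23. With single libraries left out the count ran from 0 to 1, from 5 to 19 and from 6 to 16, and where 2 libraries remained in a group their spread was taken from all groups. In run A libraries alone, a setting added once the data had been seen, 0 were called in each comparison, but 0 of all 23055 genes were called there, so it says nothing of stability. All 43 log2 fold changes of WT Ly6Clo against WT Ly6Chi were negative in each of these settings. Low counts limit Ifi44, with 9, 0 and 22 counts in WT Ly6Clo; over the other 42 genes the lowest count in a library was 43, for Ifit1 in KO replicate 3.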
